A study of Rattus norvegicus with 11 samples.

Results

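The genes described here are markers of nerve fibres, of the machinery that releases transmitter at synapses, and of the glia that wrap peripheral nerves, measured in the bladder wall of rats with partial bladder outlet obstruction (PBOO). They were chosen as a list of 34 gene symbols from knowledge of these cells, with earlier results of these data known. Of the 34, 33 were found among the 18507 genes of the expression table. These comprised 21 neuronal, 7 synaptic and 5 Schwann cell genes. Tac1, the gene of substance P, was not analysed here. RNA-seq was performed on bladder tissue of female Sprague-Dawley rats about 0.5 years old. In the PBOO rats a suture was tied around the bladder neck and urethra, and the sham rats, which the sample labels call normal, received an abdominal incision alone. The 11 samples were 3 normal and 3 PBOO bladders at week 4, and 3 normal and 2 PBOO bladders at week 5. The normal bladders of week 5 carry the word adult in the names of their expression columns and are the controls of that week in the sample records. The columns of the PBOO bladders of week 5 begin with DO, and all columns of week 4 end in Input. Whether the weeks were processed apart is not known. The study describes its samples as biological replicates, and no label ties a sample to a particular rat.

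As background, the detrusor muscle of the bladder is driven by parasympathetic nerve fibres that release acetylcholine and ATP, while sensory fibres report filling and sympathetic fibres favour storage. The fibres carry an internal skeleton of neurofilaments and peripherin, and their terminals release vesicles through SNARE proteins and the calcium sensor synaptotagmin. Schwann cells ensheath the fibres under the control of the transcription factor Sox10. In the rat most of the neurons that supply the bladder lie outside it, in the pelvic ganglia and dorsal root ganglia, so that mRNA from the wall holds mainly the nerve-resident glia and whatever transcripts the fibres carry.

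Promoter sequences of 4 members are shown because Prph and Gfap were lower, and Tubb3 and Syn1 higher, in PBOO bladders at week 4. They are RefSeq sequences of rat build GRCr8, each 300 bases long, from 250 bases before to 50 after the annotated start, 5′ to 3′ on the strand of the gene. Capitals mark matches to 4 searched strings on either strand: CAGCACC, part of the RE1 element bound by the neuronal repressor REST; GGACAG, another part of the same element; TGACGTCA, the cAMP response element; and TATAAA, the core promoter string bound by the TATA-binding protein. The windows lie at chr7:132097039-132097338 (+ strand, Prph), chr10:88361612-88361911 (- strand, Gfap), chr19:68365437-68365736 (+ strand, Tubb3) and chrX:3725495-3725794 (+ strand, Syn1).
Prph: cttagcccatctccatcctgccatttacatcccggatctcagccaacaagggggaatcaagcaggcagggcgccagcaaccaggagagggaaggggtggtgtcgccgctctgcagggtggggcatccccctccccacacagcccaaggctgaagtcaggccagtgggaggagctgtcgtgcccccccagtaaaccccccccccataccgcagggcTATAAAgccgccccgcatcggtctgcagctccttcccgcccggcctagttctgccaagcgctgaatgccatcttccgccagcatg
Gfap: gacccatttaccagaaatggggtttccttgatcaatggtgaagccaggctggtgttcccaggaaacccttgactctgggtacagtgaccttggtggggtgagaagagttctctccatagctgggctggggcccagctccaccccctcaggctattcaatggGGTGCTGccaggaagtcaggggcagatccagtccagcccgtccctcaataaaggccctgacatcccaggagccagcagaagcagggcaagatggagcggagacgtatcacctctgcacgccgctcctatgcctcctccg
Tubb3: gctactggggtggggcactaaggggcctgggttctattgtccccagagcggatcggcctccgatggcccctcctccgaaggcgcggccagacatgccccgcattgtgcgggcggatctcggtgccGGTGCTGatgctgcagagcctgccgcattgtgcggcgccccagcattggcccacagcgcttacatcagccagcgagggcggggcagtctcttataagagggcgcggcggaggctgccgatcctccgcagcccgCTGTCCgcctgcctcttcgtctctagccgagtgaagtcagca
Syn1: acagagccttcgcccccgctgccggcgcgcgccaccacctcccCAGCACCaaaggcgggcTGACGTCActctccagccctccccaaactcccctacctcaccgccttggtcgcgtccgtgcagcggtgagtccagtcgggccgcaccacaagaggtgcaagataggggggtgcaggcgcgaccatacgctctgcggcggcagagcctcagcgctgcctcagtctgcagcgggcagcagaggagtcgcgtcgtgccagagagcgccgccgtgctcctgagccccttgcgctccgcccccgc

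The window of Prph held TATAAA, starting at base -35 from the start site. The window of Gfap held the reverse complement of CAGCACC at base -89. In Tubb3 the same reverse complement stood at base -125 and that of GGACAG at base 9, and Syn1 held CAGCACC at base -207 and TGACGTCA at base -190. CAGCACC occurred in 6.78% of the 33469 promoter windows of the reference and in 8 of the 22 members that had a window, namely Chat, Chgb, Elavl4, Gfap, Syn1, Syp, Tac1 and Tubb3. GGACAG occurred in 21.7% of all windows and in 2 members (Mbp and Tubb3), TGACGTCA in 1.83% and in 3 (Nos1, Syn1 and Th), and TATAAA in 14.2% and in 3 (Prph, Uchl1 and Vip). Of the genes shown, CAGCACC was present in Gfap, which was lower in PBOO bladders in the week named above, and in Tubb3 and Syn1, which were higher. These genes were chosen by the direction of their difference. Whether the string goes with that direction was not tested. The shares of the reference count windows, while a member was counted where any of its windows held the string, so the units differ. The matches are matches of letters, and no binding was measured.

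Expression was given as FPKM, fragment counts scaled to transcript length and to the size of the library, which is a level per length. The columns summed to 424961 to 564343 FPKM. The table holds no read counts, so the depth of each sample is unknown. Genes at 0 numbered 5578 to 5798 in the samples of week 4 and 1715 to 2329 in those of week 5, and levels were therefore compared within a week only. The smooth muscle and urothelium markers that define this tissue were abundant in the normal bladders, where the summed level of 6 smooth muscle genes was 24283.7 to 28625.4 FPKM. In the PBOO bladders this sum was 50250.1 to 81680.1 FPKM at week 4, with all 6 genes higher, and 975.78 and 1831.77 FPKM at week 5, with all 6 lower. The summed level of 5 fibroblast markers was 68.95 and 112.2 FPKM in the PBOO bladders of week 5, against 982.1 to 1207 FPKM in the normal ones, and that of 5 leukocyte markers was 91.96 and 523.1 FPKM against 6.58 to 17.4 FPKM. Normal replicate 1 of week 4 stood apart from its group, with fibroblast markers at 629.5 FPKM against up to 2697 FPKM in the other normal bladders, and leukocyte markers at 9.14 FPKM against up to 113.0 FPKM. The summed level of 6 urothelium markers was 2840 to 3534 FPKM in PBOO and 4791 to 5834 FPKM in normal bladders of week 4, with 5 of the 6 called lower. The part of these shifts in the results below was not tested, and in tissue RNA fewer cells of a type and less RNA per cell cannot be told apart.

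PBOO and normal bladders were compared with limma on log2(FPKM + 0.1), and a gene was tested in a week where its mean over that week's samples reached 0.5 FPKM. A member is called higher or lower at an unadjusted limma p under 0.05, and a stricter call asks for a Benjamini-Hochberg adjusted p under 0.05 over all genes tested together with a 2-fold difference. Fold changes on this scale understate the differences of low genes. Of the 33 members, 22 passed the filter at week 4 and 18 at week 5. The 11 members that did not pass in either week were under 0.5 FPKM in every one of the 11 samples: Calca, Chat, Chga, Chgb, Elavl4, Erbb4, Nos1, Ret, Snap25, Th and Vip. Tubb3, Syp, Syn1 and Gfap passed at week 4 alone.

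At week 4 the calls went both ways: 9 members were called lower in PBOO bladders and 3 higher. The lower ones were the fibre genes Nefl, Prph and Uchl1, the release genes Syt1 and Vamp2, and the glial genes Mbp, Sox10, Gfap and Olig1. The higher ones were Tubb3, Syn1 and Ncam1, of which Syn1 passed the filter only through the PBOO group, where it was high. Of all 11320 genes tested, 26.2% were called lower and 5.76% higher, so the members' counts stood at 9 and 3 of 22 against a background in which lower calls were common. Under the stricter call 1 member was lower, Olig1, and none was higher, against 0.106% and 0.265% of all genes. The median log2 fold change of the 22 members was -0.66, and -0.60 over the 21 members without Npy, which was listed at 0 in all 3 PBOO bladders. The median over all genes was -0.25, and this shift was -0.01 after median-ratio scaling of the samples, where 56.5% rather than 18.0% of the called genes were higher. With that scaling 9 members were called, 3 higher and 6 lower, and Prph, Vamp2 and Mbp were no longer among them. The count of 12 members called became 7 without normal replicate 2, 7 without normal replicate 3 and 16 without PBOO replicate 1. Without PBOO replicate 1, Nefm (1.03) and Gap43 (0.66) were called higher too and Stmn2 and L1cam lower. Without normal replicate 1, the sample that stood apart, 9 members were called, 2 higher and 7 lower: Syn1, Vamp2, Mbp, Sox10 and Gfap lost the call, and Stmn2 and S100b gained it. The 3 higher calls became 0 without normal replicate 2, 1 without normal replicate 3, PBOO replicate 2 or PBOO replicate 3, and 5 without PBOO replicate 1.

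At week 5 the members were mostly lower in PBOO bladders: 13 of the 18 tested were called lower and 1, Npy, higher. Npy passed the filter only through the PBOO group, where it was high, and Nefl, Nefm, Gap43, Stmn2, Ncam1, Cdh2, S100b, Sox10 and Olig1 only through the normal group. The counts are therefore a description of the members that passed. Across all 13685 genes tested, 18.8% were called lower and 24.6% higher. Under the stricter call 12 members were lower and none was higher, against 11.4% and 7.91% of all genes. The lower members were Nefl, Nefm, Prph, Gap43, Stmn2, Syt1, Gfra3, L1cam, Ncam1, Cdh2, S100b, Sox10 and Olig1, of which L1cam missed the stricter call. The 1 higher call became 0 without PBOO replicate 1 and 2 without normal replicate 3 or PBOO replicate 2. The median log2 fold change of the 18 members was -2.28, where the median over all genes was 0.12. Median-ratio scaling moved the latter to 0.02 and the share of called genes that were higher from 56.7% to 47.4%. In these 2 PBOO bladders the summed levels of smooth muscle and fibroblast markers were below every normal bladder and that of leukocyte markers above, as given above, and their part in the members' differences was not tested.

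**Figure D1:**
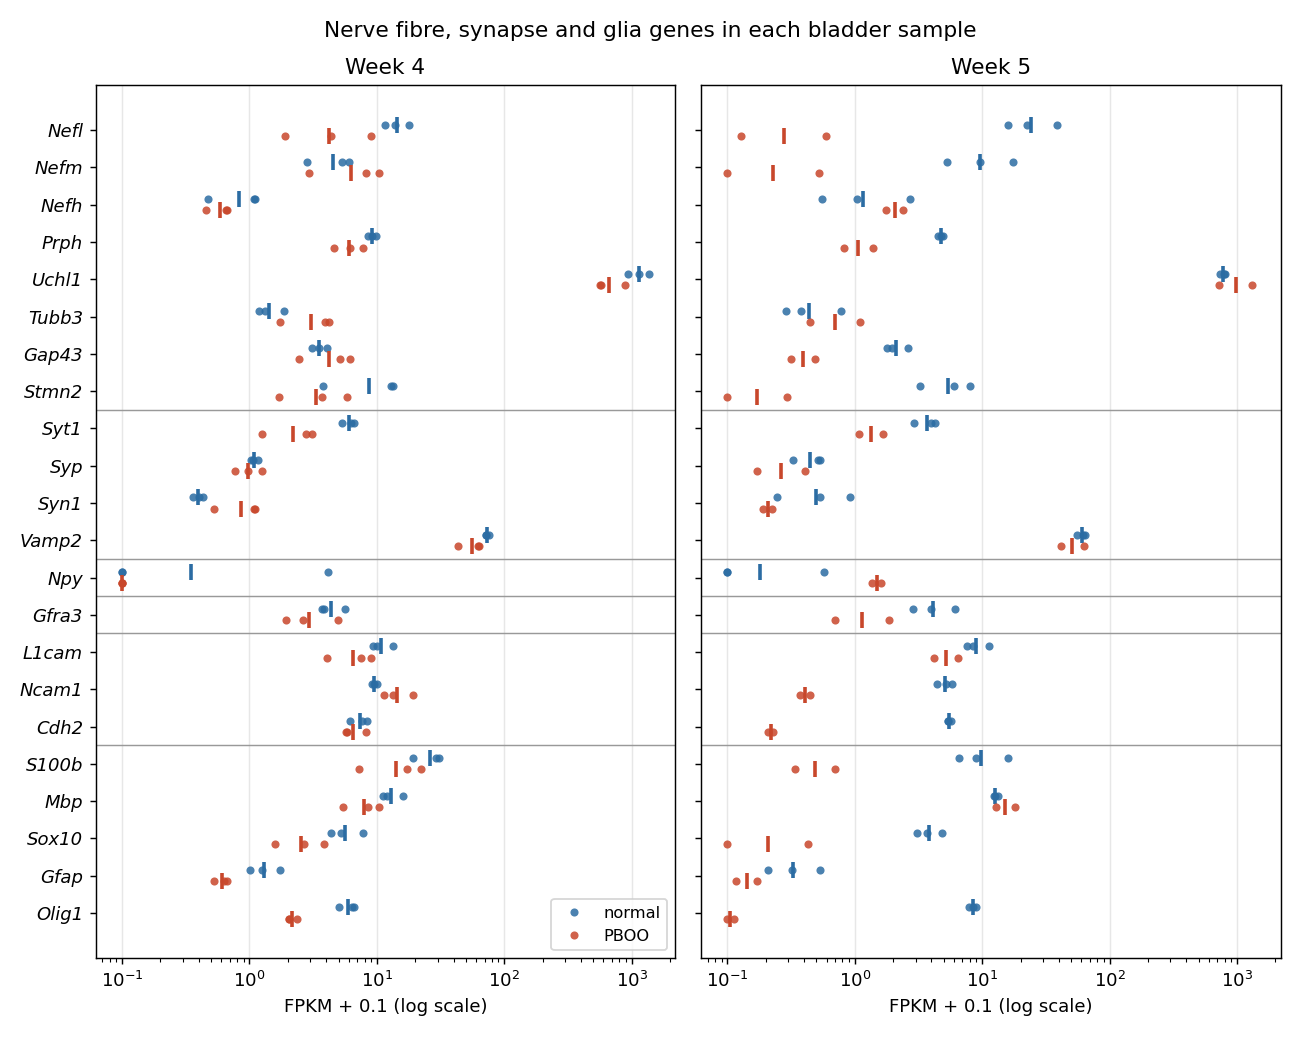
Level of each member that passed the filter in at least 1 week, as FPKM + 0.1 on a logarithmic axis, in each of the 11 samples (points; blue normal, red PBOO), with a bar at the mean of the log values of each group. Uchl1 was the highest member in every sample (566 to 1361 FPKM), and Olig1 was at 0 and 0.0120 FPKM in the PBOO bladders of week 5.

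Among the fibre genes, the neurofilament light chain was lower in PBOO bladders at both weeks. Nefl read 13.8, 11.5 and 17.9 FPKM in the normal bladders of week 4 and 4.28, 8.85 and 1.81 FPKM in the PBOO bladders, a log2 fold change of -1.76 ± 0.52 (SE; limma adjusted p = 0.08825). At week 5 it read 22.5, 38.7 and 15.8 FPKM in normal and 0.495 and 0.0284 FPKM in PBOO bladders (-6.44 ± 0.71, adjusted p = 0.002589). The groups did not overlap at either week, and the call at the unadjusted p held under all 15 alternatives at week 4 and all 14 at week 5. The medium chain, which assembles with the light chain, differed from it at week 4. Nefm read 2.72, 5.25 and 5.98 FPKM in normal and 2.81, 10.3 and 8.09 FPKM in PBOO bladders of week 4, with overlapping groups and a log2 fold change of 0.48 ± 0.52 (adjusted p = 0.5212). At week 5 Nefm was 9.42, 17.5 and 5.20 FPKM in normal bladders and 0.423 and 0 FPKM in PBOO bladders (-5.39 ± 0.82, adjusted p = 0.007095). The heavy chain Nefh, which is added to mature large axons, was low throughout, at 0.356 to 1.01 FPKM over the samples of week 4 and 0.455 to 2.64 FPKM over those of week 5, and was not called at either week. Nefh was called higher at week 5 without normal replicate 3 (1.45) and also with the replicate number as a block.

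Peripherin, the intermediate filament of peripheral neurons, was lower at both weeks. Prph was 8.41, 9.05 and 9.78 FPKM in normal bladders of week 4 and 7.62, 6.10 and 4.51 FPKM in PBOO bladders (-0.60 ± 0.21, adjusted p = 0.1149), a call lost without normal replicate 2, normal replicate 3 or PBOO replicate 2 and with median-ratio scaling. At week 5 the 3 normal bladders were close together, at 4.62, 4.43 and 4.83 FPKM, and both PBOO bladders were below them, at 1.28 and 0.726 FPKM (-2.14 ± 0.27, adjusted p = 0.003988). Uchl1, the ubiquitin hydrolase known as PGP9.5 and used to stain nerves, was far above every other member. It read 1361, 936 and 1140 FPKM in normal and 883, 566 and 576 FPKM in PBOO bladders of week 4, without overlap (-0.78 ± 0.22, adjusted p = 0.08601). At week 5 it was 804, 731 and 785 FPKM in normal and 1310 and 724 FPKM in PBOO bladders, with the PBOO samples on either side of the normal ones (0.33 ± 0.27, adjusted p = 0.3956), without PBOO replicate 1 the sign of this difference reversed (-0.093), and without PBOO replicate 2 the gene was called higher (0.76). Uchl1 and Nefh were the 2 fibre genes tested at week 5 that were not called lower. At week 4 the call of Uchl1 was lost with quantile normalization. Which cells of the bladder wall carried the Uchl1 RNA was not measured.

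The growth-associated genes behaved alike at week 5 but not at week 4. Gap43, a protein of growing axon tips, was 3.01, 3.44 and 3.93 FPKM in normal and 2.34, 6.01 and 5.02 FPKM in PBOO bladders of week 4, where the groups overlapped (0.26 ± 0.35, adjusted p = 0.6084). At week 5 it was 1.69, 2.52 and 1.88 FPKM in normal and 0.386 and 0.218 FPKM in PBOO bladders (-2.42 ± 0.36, adjusted p = 0.006251). Stmn2, a microtubule regulator of axons, was 3.65, 12.9 and 13.4 FPKM in normal and 5.68, 3.60 and 1.60 FPKM in PBOO bladders of week 4 (-1.39 ± 0.62, adjusted p = 0.1699). The low normal value was that of replicate 1, and without it the log2 fold change was -2.00 and the gene was called. At week 5 Stmn2 was 7.88, 3.15 and 5.92 FPKM in normal and 0.194 and 0 FPKM in PBOO bladders (-4.97 ± 0.61, adjusted p = 0.00352). Tubb3, the neuronal beta tubulin, went the other way at week 4, with 1.77, 1.22 and 1.09 FPKM in normal and 1.63, 4.14 and 3.82 FPKM in PBOO bladders (1.10 ± 0.40, adjusted p = 0.1217). PBOO replicate 1 lay within the normal range, and the call was lost without any 1 of normal replicates 2 and 3 and PBOO replicates 2 and 3, with the replicate number as a block and in a single fit over all 11 samples. At week 5 Tubb3 was under the filter, at 0.276, 0.673 and 0.191 FPKM in normal and 0.349 and 0.997 FPKM in PBOO bladders. Elavl4, an RNA-binding protein of neuronal cell bodies, never exceeded 0.0965 FPKM.

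Among the genes of vesicle release, the calcium sensor was lower at both weeks. Syt1 was 6.51, 6.12 and 5.26 FPKM in normal and 2.68, 2.99 and 1.16 FPKM in PBOO bladders of week 4 (-1.45 ± 0.35, adjusted p = 0.07135). In week 5 bladders it was 3.87, 4.14 and 2.81 FPKM in normal and 0.973 and 1.57 FPKM in PBOO bladders (-1.45 ± 0.30, adjusted p = 0.01805). Every PBOO bladder was below every normal one in both weeks, and the call at the unadjusted p held under all alternatives. Vamp2, the vesicle SNARE, was the most abundant synaptic member, at 75.7, 72.0 and 72.0 FPKM in normal and 63.4, 62.2 and 43.2 FPKM in PBOO bladders of week 4 (-0.40 ± 0.16, adjusted p = 0.1409). This small difference lost its call under median-ratio and quantile scaling, without the trend in the variance, and without any 1 of the 3 normal bladders. At week 5 Vamp2 was 55.5, 62.1 and 64.3 FPKM in normal and 62.5 and 41.1 FPKM in PBOO bladders, with overlapping groups (-0.25 ± 0.20, adjusted p = 0.3781). Without PBOO replicate 1 it was called lower (-0.56), and without PBOO replicate 2 the sign reversed (0.047). Syn1, which tethers vesicles to the cytoskeleton, was higher at week 4, at 0.330, 0.260 and 0.302 FPKM in normal and 0.427, 1.01 and 0.987 FPKM in PBOO bladders (1.12 ± 0.44, adjusted p = 0.1395). The call of Syn1 was lost without any 1 of the 3 normal bladders, with the replicate number as a block and in the single fit, and the gene was under the filter without PBOO replicate 2 or 3. At week 5 Syn1 was under the filter, at 0.146, 0.818 and 0.431 FPKM in normal and 0.124 and 0.0915 FPKM in PBOO bladders. Syp, an integral protein of synaptic vesicles, was not called at week 4, where its levels were 0.666 to 1.16 FPKM over both groups. Snap25, the SNARE of the presynaptic membrane, did not exceed 0.466 FPKM in any sample. The granins of dense-core granules were also low, Chga at up to 0.432 FPKM and Chgb at up to 0.391 FPKM.

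The transmitter and peptide genes were mostly near 0 in both groups. Chat and Th, the enzymes that make acetylcholine and catecholamines, reached 0.0233 and 0.45 FPKM, and Nos1, the neuronal nitric oxide synthase, 0.122 FPKM. The peptide genes Vip and Calca reached 0.47 and 0.0284 FPKM. Npy, a peptide of sympathetic fibres, was the 1 gene of this kind to pass the filter, and it did so through single groups. At week 4 it was listed at 0 in all samples but normal replicate 3, which had 4.01 FPKM. At week 5 it was 0, 0.474 and 0 FPKM in normal and 1.26 and 1.52 FPKM in PBOO bladders (3.05 ± 0.92, adjusted p = 0.05602), and this call was lost in a single fit over all 11 samples. Without either PBOO bladder of week 5 Npy was under the filter. Of the receptor genes Gfra3 alone passed the filter, in both weeks. Gfra3, the artemin receptor of sensory and sympathetic neurons, was 3.78, 3.59 and 5.56 FPKM in normal and 2.53, 4.86 and 1.84 FPKM in PBOO bladders of week 4 (-0.56 ± 0.37, adjusted p = 0.3119). At week 5 Gfra3 was 3.88, 6.07 and 2.78 FPKM in normal and 0.596 and 1.76 FPKM in PBOO bladders (-1.86 ± 0.52, adjusted p = 0.04504), a call lost without PBOO replicate 1. Its signalling partner Ret did not exceed 0.287 FPKM, and the neuregulin receptor Erbb4 was listed at 0 in all samples but normal replicate 2 of week 5, at 0.0629 FPKM.

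The adhesion molecules divided at week 4 and were all lower at week 5. Ncam1, the neural cell adhesion molecule, was 9.43, 9.11 and 9.87 FPKM in normal and 11.3, 13.2 and 19.1 FPKM in PBOO bladders of week 4, without overlap (0.58 ± 0.20, adjusted p = 0.1135). Its week 5 levels were 5.06, 4.32 and 5.74 FPKM in normal and 0.346 and 0.270 FPKM in PBOO bladders (-3.65 ± 0.25, adjusted p = 0.0005634). The direction of Ncam1 thus turned between the weeks, and without normal replicate 2 its week 4 call was lost. Ncam1 is also made by muscle cells, and the smooth muscle markers moved with it, higher in PBOO bladders at week 4 and lower at week 5. Their part in this result was not tested. Cdh2, the cadherin of neural and mesenchymal cells, was 8.26, 7.57 and 6.02 FPKM in normal and 5.74, 8.15 and 5.61 FPKM in PBOO bladders of week 4 (-0.17 ± 0.21, adjusted p = 0.5712), and its sign turned with median-ratio scaling (0.078). At week 5 the 3 normal bladders read 5.56, 5.33 and 5.30 FPKM and the PBOO bladders 0.129 and 0.110 FPKM (-4.65 ± 0.23, adjusted p = 0.0002877). L1cam, an adhesion molecule of axon bundles, had group means of 10.8 ± 2.16 FPKM in normal and 6.74 ± 2.52 FPKM in PBOO bladders of week 4 (SD, n = 3 and 3), which was not called. At week 5 its means were 8.98 ± 1.95 and 5.21 ± 1.57 FPKM (SD, n = 3 and 2), with a log2 fold change of -0.79 ± 0.26 (adjusted p = 0.07432), and this call was lost without normal replicate 2, normal replicate 3 or PBOO replicate 2, with the replicate number as a block and in the single fit over all 11 samples.

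Olig1 and Sox10 were called lower in PBOO bladders at both weeks, Mbp at week 4 alone and S100b at week 5 alone. Gfap was called lower at week 4 and was not tested at week 5. All 5 had log2 fold changes below 0 at week 4, 4 of them called, with a median of -1.10. At week 5, 3 of the 4 tested were called lower, with a median of -4.26. Over all genes 26.2% were called lower at week 4 and 18.8% at week 5, with medians of -0.25 and 0.12. The 3 called at week 5, S100b, Sox10 and Olig1, passed the filter there only through the normal group. That count and that median therefore describe the members that passed. Sox10, the transcription factor that defines the lineage, was 7.62, 5.10 and 4.27 FPKM in normal and 2.58, 3.71 and 1.49 FPKM in PBOO bladders of week 4 (-1.15 ± 0.37, adjusted p = 0.1016), a call lost without normal replicate 1. At week 5 Sox10 was 3.57, 4.72 and 3.0 FPKM in normal and 0.328 and 0 FPKM in PBOO bladders (-4.20 ± 0.65, adjusted p = 0.00734). Olig1, a transcription factor best known from the oligodendrocyte lineage, gave the most even separation. It was 6.33, 6.49 and 4.96 FPKM in normal and 2.28, 1.96 and 1.95 FPKM in PBOO bladders of week 4 (-1.47 ± 0.19, adjusted p = 0.04833). At week 5 it was 8.79, 7.77 and 8.36 FPKM in normal and 0 and 0.0120 FPKM in PBOO bladders (-6.31 ± 0.24, adjusted p = 0.0001778). The unadjusted call of Olig1 held under all alternatives at both weeks, but its stricter call at week 4 was lost without any 1 of the samples of that week other than PBOO replicate 1.

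S100b, the calcium-binding protein by which Schwann cells are stained, was the most abundant glial member in the normal bladders of week 4. It read 19.3, 29.2 and 30.9 FPKM there and 7.17, 17.3 and 22.1 FPKM in PBOO bladders, with overlap and no call (-0.88 ± 0.41, adjusted p = 0.1872). The lowest normal value was that of replicate 1, and S100b was called without it (-1.10). At week 5 S100b was 8.86, 15.7 and 6.51 FPKM in normal and 0.598 and 0.239 FPKM in PBOO bladders (-4.33 ± 0.48, adjusted p = 0.002589). Gfap, the glial intermediate filament found in non-myelinating Schwann cells, was 1.63, 1.16 and 0.917 FPKM in normal and 0.430, 0.530 and 0.568 FPKM in PBOO bladders of week 4 (-1.10 ± 0.34, adjusted p = 0.09633). Its call was lost without normal replicate 1 and with quantile normalization. At week 5 Gfap was under the filter, at 0.109, 0.432 and 0.221 FPKM in normal and 0.0720 and 0.0169 FPKM in PBOO bladders. Mbp, a structural protein of myelin, had means of 13.0 ± 2.52 FPKM in normal and 8.04 ± 2.56 FPKM in PBOO bladders of week 4 (SD, n = 3 and 3), without overlap (-0.72 ± 0.27, adjusted p = 0.1254), a call lost with median-ratio or quantile scaling and without any 1 of normal replicates 1 and 3 and PBOO replicates 2 and 3. At week 5 its means were 12.6 ± 0.454 and 15.3 ± 3.68 FPKM (SD, n = 3 and 2), with overlapping groups and no call (0.26 ± 0.18, adjusted p = 0.312), and without PBOO replicate 2 the gene was called higher (0.50).

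**Figure D2:**
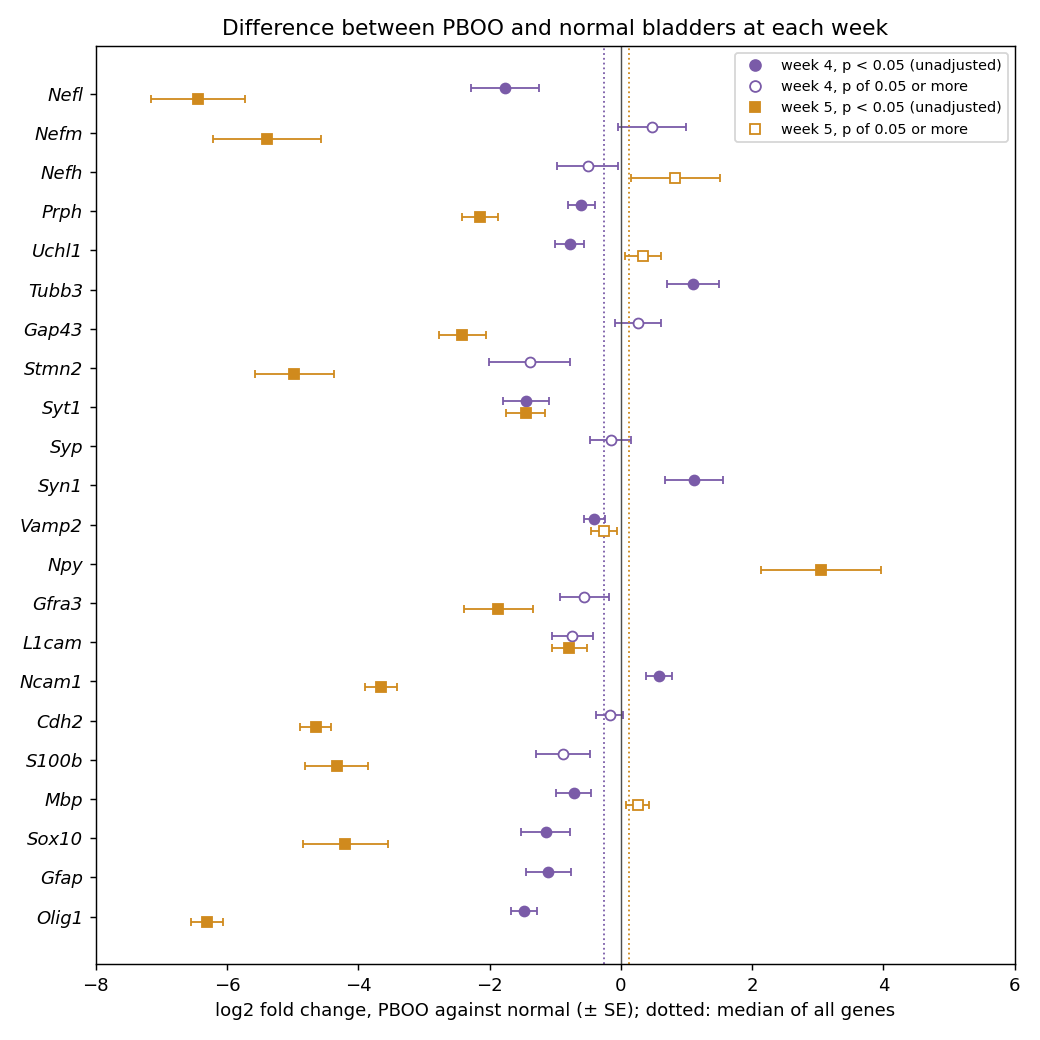
Log2 fold change of each tested member in PBOO against normal bladders (horizontal axis, ± SE) at week 4 (circles) and week 5 (squares), filled where the unadjusted limma p was under 0.05, with dotted lines at the median of all genes. Olig1 lay at -1.47 and -6.31, Uchl1 at -0.78 and 0.33, and Ncam1 at 0.58 and -3.65. Npy is not drawn at week 4, where all PBOO bladders were at 0.

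Summed over the 5 Schwann cell members, the level was 50.7 to 53.1 FPKM in the normal bladders of week 4 and 22.8 to 31.9 FPKM in the PBOO bladders. At week 5 the sum was 30.4 to 41.8 FPKM in normal and 12.95 and 18.9 FPKM in PBOO bladders. The neuronal members apart from Uchl1, which would dominate their sum, came to 69.8 to 88.2 FPKM in normal and 53.8 to 73.7 FPKM in PBOO bladders of week 4. At week 5 they came to 61.5 to 92.4 FPKM in normal and 11.5 and 14.1 FPKM in PBOO bladders. The glial sums thus separated the groups at both weeks. At week 5, however, the PBOO sums were largely Mbp, at 12.7 and 17.9 FPKM, which was not called lower. Summed over 8 Schwann cell markers, which include Mbp, S100b and Sox10, the groups overlapped at week 5. These sums were 35.1 and 46.6 FPKM in PBOO and 42.6 to 67.1 FPKM in normal bladders. In the PBOO bladders they were largely Erbb3, at 17.2 and 20.3 FPKM, and Mbp. The sums of the 24 other Schwann cell genes described below also overlapped, at 495 and 973 FPKM against 552 to 627 FPKM. These were largely 1 gene, Mal, at 412 and 846 FPKM in PBOO and 349 to 443 FPKM in normal bladders. They therefore say little of the other genes of that list. The neuronal sums without Uchl1 overlapped at week 4, while with Uchl1 they were 1011 to 1431 FPKM in normal and 633 to 937 FPKM in PBOO bladders and did not overlap. At week 5 the neuronal sums with Uchl1 overlapped, at 736 and 1324 FPKM in PBOO and 823 to 873 FPKM in normal bladders. The synaptic sums, largely Vamp2, were 79.4 to 84.6 FPKM in normal and 46.9 to 68.1 FPKM in PBOO bladders of week 4, also without overlap, and overlapped at week 5. By functional group, 3 of 13 neuronal members tested were called lower and 2 higher at week 4, and 9 of 12 lower and 1 higher at week 5. Over all genes 26.2% were lower and 5.76% higher at week 4, and 18.8% lower and 24.6% higher at week 5, so that the neuronal share of lower calls at week 4 was near the background. Of the synaptic members 2 of 4 were lower and 1 higher at week 4, and 1 of 2 lower at week 5. Median log2 fold changes were -0.56 and -2.28 for the neuronal members, and -0.28 and -0.85 for the synaptic members, at weeks 4 and 5. No test was made between the functional groups.

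**Figure D3:**
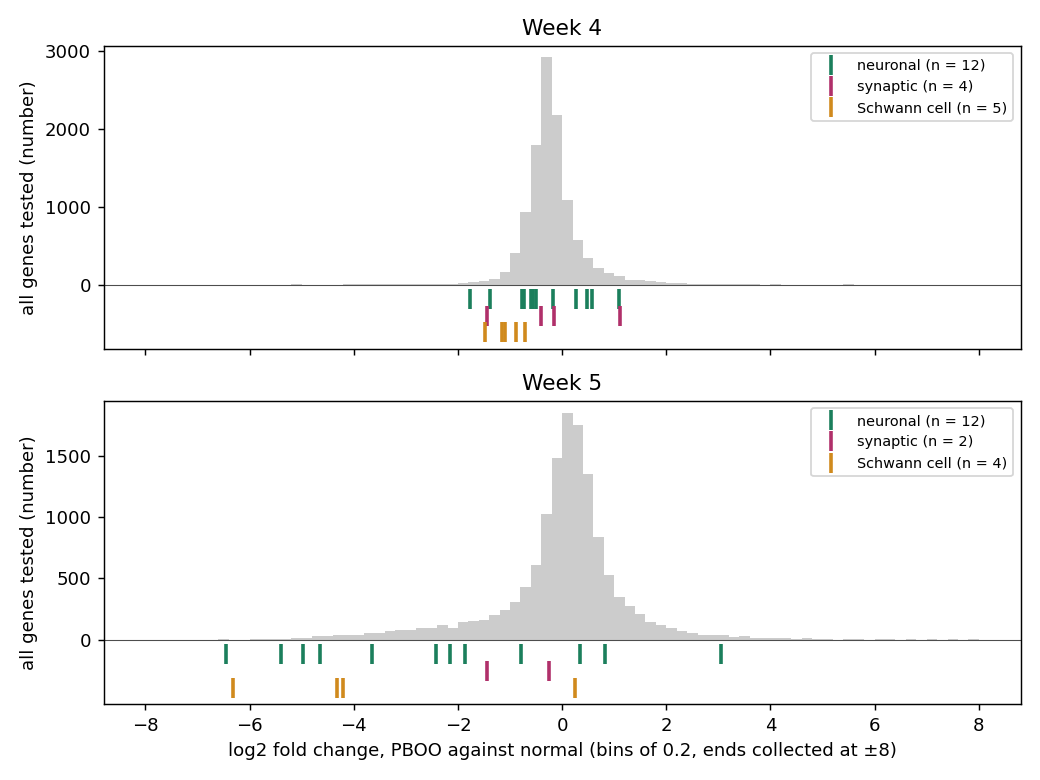
Log2 fold changes of the neuronal, synaptic and Schwann cell members (1 tick each) under the distribution of all tested genes at week 4 and week 5. At week 4 the members spread on both sides of the median of all genes (-0.25), and at week 5 most lay well below it (0.12). Npy is left out at week 4.

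**Figure D4:**
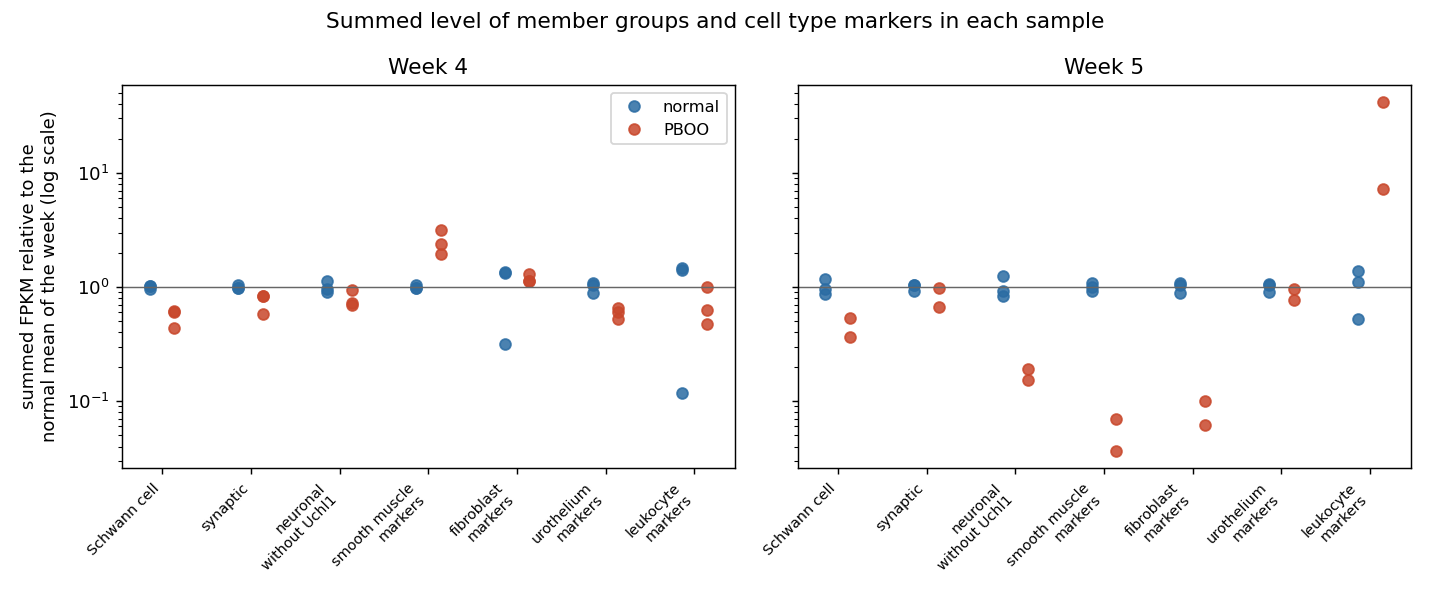
Summed FPKM of gene lists in each sample (points; blue normal, red PBOO) divided by the mean of the normal bladders of that week, on a logarithmic axis, for the Schwann cell members, the synaptic members, the neuronal members without Uchl1, and the markers of other cell types. The smooth muscle markers were 50250.1 to 81680.1 FPKM in the PBOO bladders of week 4 and 975.78 and 1831.77 FPKM in those of week 5.

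Further nerve and glia genes, taken as lists that share no gene with the members, were described in the same way. Their counts stand against the same shares of all genes, 26.2% lower and 5.76% higher at week 4 and 18.8% lower and 24.6% higher at week 5. The lower calls of the other neuronal and synapse genes at week 4, and the higher calls of the other Schwann cell genes at week 5, were near or below those shares. Some genes of these lists passed the filter only through the group where they were high. The counts and medians therefore describe the genes that passed. Of the genes named below, Scg5 at week 4 and Gch1 at week 5 passed through the PBOO group. Scn7a, Nrn1, Gfra2 and Map1b at week 5 passed through the normal group. Of 24 other Schwann cell genes 19 were tested in each week, and 8 were called lower and none higher at week 4, with a median log2 fold change of -0.62. Among them were Nrn1 (-1.82, adjusted p = 0.04833), the glial sodium channel Scn7a (-1.50, adjusted p = 0.05545) and the myelin protein gene Ncmap (-1.09, adjusted p = 0.123). At week 5 the list divided, with 8 genes lower and 4 higher and a median of -0.20. Art3 (-4.97, adjusted p = 0.0009364), Scn7a (-4.94, adjusted p = 0.007969) and the myelin gene Pmp22 (-3.61, adjusted p = 0.0007795) were lower, and Nrn1, at a mean of 2.27 ± 0.624 FPKM in normal bladders (SD, n = 3), was listed at 0 in both PBOO bladders. Against this, Ncmap was higher in PBOO bladders at week 5 (3.13, adjusted p = 0.004118), as was the neuregulin receptor Erbb3 (0.69, adjusted p = 0.01656); both were picked out after their values were seen. Erbb3 is also expressed by epithelium, and the summed urothelium markers were 4511 and 5620 FPKM in PBOO and 5248.5 to 6155 FPKM in normal bladders of week 5. Within that sum the 6 markers moved in different directions, with 4 called lower and 1 higher. Krt5 was higher (3.52, adjusted p = 0.008925), and Krt20 (-6.47) and Upk2 (-2.39) were among the lower. The part of the urothelium in the Erbb3 result was not tested.

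Of 28 other neuronal genes 15 were tested at week 4, with 3 lower and 2 higher and a median of 0.12. The axon-guidance gene Dpysl3 was higher (1.44, adjusted p = 0.05381), and the neurturin receptor Gfra2 (-1.35, adjusted p = 0.05028), the GDNF receptor Gfra1 (-0.92, adjusted p = 0.05854) and Sncg (-0.83, adjusted p = 0.05381) were lower. At week 5, 7 of 12 were lower and none higher, with a median of -1.82. Sncg (-4.88, adjusted p = 0.0004019), Gfra2 (-3.83, adjusted p = 0.001867), the autonomic transcription factor Hand2 (-3.69, adjusted p = 0.0003228) and the microtubule protein Map1b (-2.85, adjusted p = 0.001177) had the largest differences.

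Of 25 other synapse genes 13 were tested at week 4, with 3 higher and 1 lower and a median of 0.21. The granule genes Scg5 (2.18, adjusted p = 0.0774) and Cpe (1.58, adjusted p = 0.05381) and the synaptotagmin Syt11 (0.80, adjusted p = 0.07882) were higher, and the SNARE Vamp1 was lower (-0.72, adjusted p = 0.1147). At week 5, 6 of 11 were lower and 2 higher, with a median of -0.84. Pcsk1n (-1.99, adjusted p = 0.001177), the endocytosis GTPase Dnm1 (-1.39, adjusted p = 0.01143) and Syt11 (-1.13, adjusted p = 0.03229) were lower, and the presynaptic SNARE Stx1a was higher (1.31, adjusted p = 0.01117). Of 20 other transmitter genes, 3 of 8 tested were lower and none higher at week 4, with a median of 0.16. Among these were the vesicular monoamine transporter Slc18a2 (-0.98, adjusted p = 0.0802) and the monoamine oxidase Maoa (-0.52, adjusted p = 0.1093). At week 5, 2 of 6 were lower and 2 higher, with a median of -0.53. Ache, which breaks down acetylcholine, was higher (3.68, adjusted p = 0.007568), as was Gch1, which makes a cofactor of catecholamine synthesis (2.87, adjusted p = 0.01812), and Maoa was lower (-2.61, adjusted p = 0.0005208).

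Whether the difference between PBOO and normal bladders itself differed between the weeks was tested as an interaction in a limma fit over all 11 samples. Of 21 members tested, 10 had an effect that was lower at week 5 than at week 4 and 1 an effect that was higher, at an adjusted p under 0.05. Of all 11296 genes tested in this way, 13.5% were below 0 and 26.5% above 0. The median over all genes was 0.35, and 0.07 after median-ratio scaling. The smallest p-values were those of 1 glial and 2 adhesion genes: the week 5 effect minus the week 4 effect was -4.84 for Olig1 (adjusted p = 2.564e-06), -4.48 for Cdh2 (adjusted p = 4.814e-06) and -4.23 for Ncam1 (adjusted p = 8.254e-06). Among the filament genes it was -5.87 for Nefm (adjusted p = 0.001901), -4.68 for Nefl (adjusted p = 0.004112) and -1.54 for Prph (adjusted p = 0.006756). For Uchl1 it was above 0, at 1.11 (adjusted p = 0.03656), a call lost with median-ratio scaling, with quantile normalization and without PBOO replicate 1 of week 5. Syt1, lower at both weeks, gave -0.00 (adjusted p = 0.9996), with values between -0.40 and 0.32 over 19 alternatives.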

How the data were processed

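The deposited table holds FPKM values made by the authors for 18507 genes in 11 bladder samples. Before that, the authors prepared TruSeq libraries, trimmed reads by SeqPrep and Sickle, mapped them using HISAT2, assembled transcripts using StringTie, took FPKM from featureCounts and tested with DESeq2. The submitters' processing notes also list bcl2fastq 2.0, limma and mm10, which is a mouse assembly. The paper names no build, and the strand of counting and the annotation are not given in the sources used here.

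Members and companion lists were chosen with earlier results of these data known. All 33 symbols were found in the RefSeq table of rat build GRCr8, as were 15559 of the 18507 symbols (84.1%). Values were not rescaled. Each week was fitted separately with limma 3.58.1 in R 4.3.3 (lmFit, eBayes with trend) on log2(FPKM + 0.1), keeping genes whose mean reached 0.5 FPKM (11320 at week 4, 13685 at week 5), with Benjamini-Hochberg adjustment over them. The week difference used all 11 samples. A count test was not possible without counts, and the precision that depth gives is unknown. The scripts were tested on simulated data.

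Values in every sample are given for members called with a 2-fold difference at either week and for the most abundant of each group. From each companion list at most 4 genes with the largest called difference and a mean of at least 1 FPKM are named. Some items of these lists are not reported here. Alternatives changed the pseudocount, the filter, the scaling, the variance trend, the replicate block, the samples fitted together and each replicate in turn.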

Additional observations from a re-analysis of the deposited data

Results flagged for a closer look

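For 11 members the difference between PBOO and normal bladders differed between the weeks by the interaction test in limma. Values are the week 5 log2 effect minus the week 4 log2 effect. Among fibre genes they were -5.87 for Nefm, -4.68 for Nefl (adjusted p = 0.004112), -3.58 for Stmn2 (adjusted p = 0.01443; -1.36 and no longer called with a pseudocount of 1), -2.68 for Gap43 (adjusted p = 0.003171) and -1.54 for Prph. Among adhesion genes they were -4.48 for Cdh2 and -4.23 for Ncam1. Among glial genes they were -4.84 for Olig1, -3.45 for S100b (adjusted p = 0.003775) and -3.05 for Sox10 (adjusted p = 0.01096). Uchl1 alone of the 11 had a value above 0, 1.11. The weeks also differed in the naming of their expression columns and in the number of genes listed at 0. That number was 5578 to 5798 at week 4 and 1715 to 2329 at week 5. Whether the weeks were processed apart is not known, and the part of this in the week difference was not tested. No group held 4 or more samples, so single samples were not tested for standing apart.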

How the results depend on the processing

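At week 4 the 3 higher calls became 1 with the replicate block and 1 in a single fit over all 11 samples, and the 9 lower calls became 5 with quantile normalization. The 1 stricter call became 0 without a filter on low values, with median-ratio scaling, without the variance trend and with the replicate block, and 2 in the single fit. With 1 replicate left out at a time, week 4 gave 7 to 16 members called, 0 to 5 of them higher, 0 to 3 under the stricter call, and medians of -0.79 to -0.41. At week 5 the 1 higher call became 2 without a filter and with the replicate block, and 0 with a filter of 2 FPKM and in the single fit, with 0 to 2 over the samples left out. The week 5 median of -2.28 became -1.39 with a pseudocount of 1, -2.49 with one of 0.01, -0.78 without a filter, -3.65 with a filter of 2 FPKM and -2.04 with quantile normalization, and -2.62 to -2.13 over the samples left out. The values without a filter include members at or near 0 in both groups. Over all genes, the stricter count at week 4 was 42, 0 with median-ratio scaling, without a filter and without the variance trend, and 719 without PBOO replicate 1. The cause of these shifts was not tested. Signs reversed at week 4 for Syp with median-ratio scaling (0.073) and without PBOO replicate 1 (-0.34 to 0.020 over the samples left out), for Cdh2 with median-ratio scaling (0.078) and quantile normalization (0.072), and for Gap43 without PBOO replicate 2 (-0.0015 to 0.66). At week 5 they reversed for Uchl1 without PBOO replicate 1 (-0.093 to 0.76) and for Vamp2 without PBOO replicate 2 (-0.56 to 0.047). The week difference of Syt1, close to 0, reversed with a pseudocount of 1 (0.11), with quantile normalization (0.097), and without 6 of the 11 samples in turn (-0.40 to 0.32). Deviations of same-numbered samples correlated at 0.154, -0.024 and 0.232 at week 4, and those of differently numbered samples at -0.210 to 0.094. At week 5 the same-numbered samples gave -0.001 and 0.124. With 2 PBOO samples in that week the deviations are equal and opposite, so a pairing cannot be judged there. Whether replicate numbers pair the samples was not settled. With the replicate block 12 members were called at week 4 (11 lower), 14 at week 5 (12 lower) and 11 between the weeks.

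The absence of counts limits what can be said of low members, and 2 PBOO samples at week 5 rest on little replication. A sample left out of that pair leaves 1, which is then assumed to vary like the normal ones.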
